A study of Homo sapiens with 6 samples.

Results

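The genes described here are 9 enzymes and effectors of the interferon-induced antiviral response: OAS1, OAS2, OAS3, OASL, MX1, EIF2AK2, ADAR, ZC3HAV1 and SAMHD1. They were taken by symbol from a deposited table of 15024 genes, and 9 of 9 were found. The RNA is from MDA-MB-231, an established human cell line derived from triple-negative breast cancer, with all cells carrying a non-targeting guide (sgNT) and all kept for 14 days in 10 µM forskolin, an activator of adenylyl cyclase and through it of protein kinase A. The 3 CD104high libraries are from CD44+ cells high in CD104, the integrin beta 4 subunit, a gate that the study's design equates with a hybrid epithelial-mesenchymal state. The 3 CD104low libraries are from CD44+ cells with little or no CD104 (CD104-/low in the labels), equated with a mesenchymal state. No unsorted or untreated group was analysed here, so the values compare 2 gates of 1 treated line. Both gates come from the same line and guide, and the labels name the replicates biological without saying what was separate about them.

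Type I interferon signals through the receptor chains IFNAR1 and IFNAR2 and the kinases JAK1 and TYK2 to a complex that holds STAT2 and IRF9 and binds interferon-stimulated response elements in gene promoters. Several of the proteins made in response sense double-stranded RNA directly. The OAS enzymes make 2′-5′ oligoadenylates, signal molecules built from ATP, PKR (the product of EIF2AK2) halts translation by phosphorylating eIF2 alpha, and ADAR edits adenosines in double-stranded RNA and so hides the cell's own transcripts from these sensors. The others act at different points: MX1 traps viral nucleocapsids, ZC3HAV1 (ZAP) marks CpG-rich RNA for decay, and SAMHD1 breaks down deoxynucleotides.

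The 9 genes parted by enzyme. OAS2, OAS3, OASL and MX1 rose in the CD104high cells, between 1.64-fold and 2.72-fold, with no overlap between the groups. EIF2AK2, ADAR, ZC3HAV1 and SAMHD1 did not pass the test, and their estimates lay between −0.23 and 0.16 on the log2 scale. OAS1 had between 3 and 12 reads per library and was not tested. Of the 8 tested genes 4 were called higher and 0 lower by limma at an adjusted p under 0.05, against 12.1% and 11.3% of 14343 genes tested. The median log2 fold change of the 8 was 0.43, against 0.0089 over all tested genes. Groups did not overlap for 5 higher and 1 lower of the 8, against 19.9% and 21.3% of all tested genes.

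**Figure D1:**
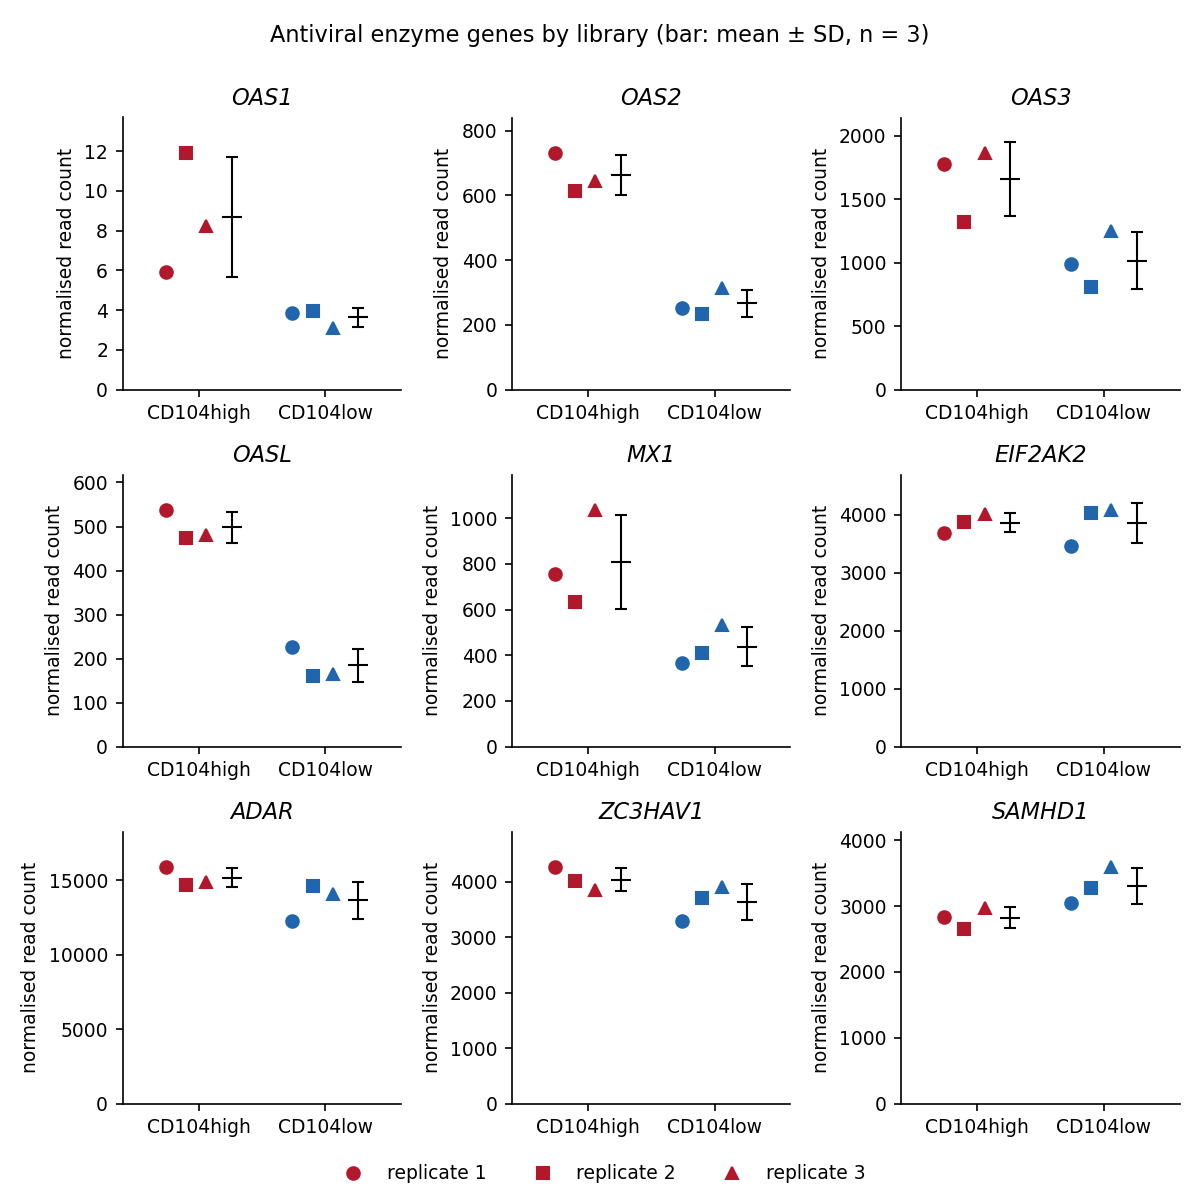
Normalised read counts (vertical axes, linear and starting at 0) of the 9 genes in 3 CD104high libraries (red, left) and 3 CD104low libraries (blue, right), with marker shape for the replicate number and black bars for mean ± SD. OAS2, OAS3, OASL and MX1 are higher in every CD104high library than in any CD104low library, EIF2AK2 and ZC3HAV1 overlap, and OAS1 stays at or under 11.9.

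Depth was alike in all libraries, at 52088604 to 56958065 reads over the table's genes. ITGB4, the gene of the sort marker, was 5.83-fold higher in CD104high (limma adjusted p = 4.1e-05). VIM, a mesenchymal filament gene that marks this line, had means of 22352 in CD104high and 21201 in CD104low. Of 6 tested line identity genes 1 was called higher (KRT19, log2 fold change 0.41, limma adjusted p = 0.00194) and 0 lower. ERBB2 had 0.20 (0.0501) and CD44, also a sort marker, −0.16 (0.113), both without overlap between the groups. VIM, KRT18 and EGFR overlapped, and ESR1 and PGR were not analysed here. Values below are normalised read counts, the authors' counts divided by a size factor per library. Fold changes are limma estimates of CD104high over CD104low on log2(value + 1), which understates the change of genes with low values.

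OAS1, OAS3 and OAS2 stand side by side on the plus strand of chromosome 12, at 112906777 to 112933222, 112938352 to 112973249 and 112978395 to 113011723 (GRCh38), and encode active synthetases. OASL lies apart on the minus strand, at 121019111 to 121039242, and its protein keeps the fold of the family without the synthetase activity and binds the RNA sensor RIG-I.

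OAS2 (ENSG00000111335.12) had 731, 612 and 643 in CD104high libraries, against 251, 234 and 313 in CD104low libraries. The groups lay far apart for their spread. The fitted log2 fold change was 1.32 (SE 0.14, 95% interval 1.00 to 1.64, limma adjusted p = 0.00043), a 2.49-fold rise. OASL (ENSG00000135114.12) had 537, 474 and 482 in CD104high, against 227, 161 and 165 in CD104low. Here replicate 1 was the highest library of both groups. Its log2 fold change of 1.44 (SE 0.16, interval 1.08 to 1.80, limma adjusted p = 0.00046) was the highest of the 8 tested genes, and its interval overlapped that of OAS2.

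OAS3 (ENSG00000111331.13), the longest synthetase, had 1781, 1324 and 1865 in CD104high, against 992, 805 and 1251 in CD104low. The groups did not overlap, but they nearly touched, since CD104low replicate 3 lay just under CD104high replicate 2. The log2 fold change was 0.71 (SE 0.17, interval 0.33 to 1.09, limma adjusted p = 0.0149), with 0.84, 0.72 and 0.58 in the pairs numbered 1, 2 and 3. Without CD104high replicate 1 the call ended, at 0.65 (limma adjusted p = 0.0722). With the replicate number as a block the adjusted p was 0.000304.

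OAS1 (ENSG00000089127.13) had 5.93, 11.9 and 8.23 in CD104high, against 3.88, 3.94 and 3.09 in CD104low, which are 26 reads in all against 11. The groups did not overlap, and the difference of group means on log2(value + 1) was 1.02, but the gene is too low for the filter on low values. Tested without that filter its adjusted p was 0.163 with limma and 0.136 with edgeR, so OAS1 was not called by either. In the authors' deposited table its log2 fold change is 1.26 (SE 0.83), with an empty adjusted p. An annotated antisense gene, AC004551.1 (112907628 to 113017751), runs on the minus strand across most of OAS1 and all of OAS3 and OAS2, with 575 annotated exon bases. It was not used here, and the strand setting of the counting is not given in the sources used here. Any of its reads that fall on exons of the 3 genes therefore cannot be told apart from theirs.

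MX1 (ENSG00000157601.14; chromosome 21, 41420304 to 41459214, plus strand) encodes a dynamin-like GTPase. It had 755, 633 and 1035 in CD104high, against 368, 410 and 532 in CD104low. Replicate 3 was the highest library in both groups, and no CD104low library reached the lowest CD104high one. The log2 fold change was 0.87 (SE 0.19, interval 0.45 to 1.30, limma adjusted p = 0.0103), a 1.83-fold rise that held in 3 of 3 numbered pairs (1.04, 0.63 and 0.96). The antisense gene AP001610.1 lies within the span of MX1 (41441056 to 41445708), with the same limit on strand as for AC004551.1. In limma without the mean-variance trend the calls for MX1 and OAS3 ended (adjusted p = 0.0511 and 0.0687). Its paralog MX2, which acts against retroviruses, had 113, 101 and 123 in CD104high, against 29.1, 13.8 and 47.4 in CD104low. The groups did not overlap for MX2 either, and it rose by 2.02 on the log2 scale (SE 0.39, limma adjusted p = 0.0056).

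EIF2AK2 (ENSG00000055332.18; chromosome 2, 37099210 to 37157065, minus strand) encodes PKR. It had 3688, 3882 and 4019 in CD104high, against 3461, 4026 and 4082 in CD104low. The groups overlapped throughout, and in 2 of the 3 numbered pairs the CD104high library was the lower one. The estimate was close to 0 (log2 fold change 0.0056, SE 0.08, limma adjusted p = 0.969), and the 95% interval of −0.18 to 0.19 leaves out changes as large as those estimated for OAS2, OAS3, OASL and MX1. The sign of this small estimate turned with edgeR and TMM scaling (−0.0011). It also turned without CD104high replicate 3 (−0.0234) and without CD104low replicate 1 (−0.0705).

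ADAR (ENSG00000160710.17; chromosome 1, 154582057 to 154628013, minus strand) had 15874, 14696 and 14890 in CD104high, against 12245, 14626 and 14050 in CD104low. The groups did not overlap, yet CD104high replicate 2 and CD104low replicate 2 were 14696 and 14626, and CD104low replicate 1 lay well under the other 5 libraries. The log2 fold change was 0.16 (SE 0.08, interval −0.020 to 0.33, limma adjusted p = 0.182), and 0.079 without CD104low replicate 1. ADAR makes a long interferon-induced protein and a shorter constitutive one from separate promoters, and the gene-level value adds both. ADARB1, the gene of the related editing enzyme ADAR2, had 1106 ± 288 in CD104high and 975 ± 177 in CD104low (SD, n = 3 each; log2 fold change 0.17, limma adjusted p = 0.546).

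ZC3HAV1 (ENSG00000105939.13; chromosome 7, 139043520 to 139109719, minus strand) had 4265, 4007 and 3844 in CD104high, against 3287, 3706 and 3908 in CD104low. The groups overlapped at 1 library, since CD104low replicate 3 lay above CD104high replicate 3. The log2 fold change was 0.15 (SE 0.08, interval −0.027 to 0.34, limma adjusted p = 0.199), with 0.38, 0.11 and −0.024 in the 3 numbered pairs, and it was 0.084 without CD104low replicate 1. SAMHD1 (ENSG00000101347.9; chromosome 20, 36889773 to 36951901, minus strand) lay lower, with 2834, 2657 and 2975 in CD104high, against 3047, 3274 and 3593 in CD104low. Every CD104high library was under every CD104low library. The log2 fold change was −0.23 (SE 0.08, interval −0.41 to −0.042), and its adjusted p of 0.0752 with limma missed the threshold. It passed as lower with the replicate block (limma adjusted p = 0.0317), without CD104low replicate 1 (0.0406) and in the authors' deposited table (0.036). Annotated spans of GPATCH11 and TLDC2 overlap the ends of EIF2AK2 and SAMHD1 on the other strand. Processed pseudogenes lie within EIF2AK2 (AC007899.1, other strand) and ZC3HAV1 (AC018644.1, same strand), and reads that they share with the genes cannot be told apart.

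**Figure D2:**
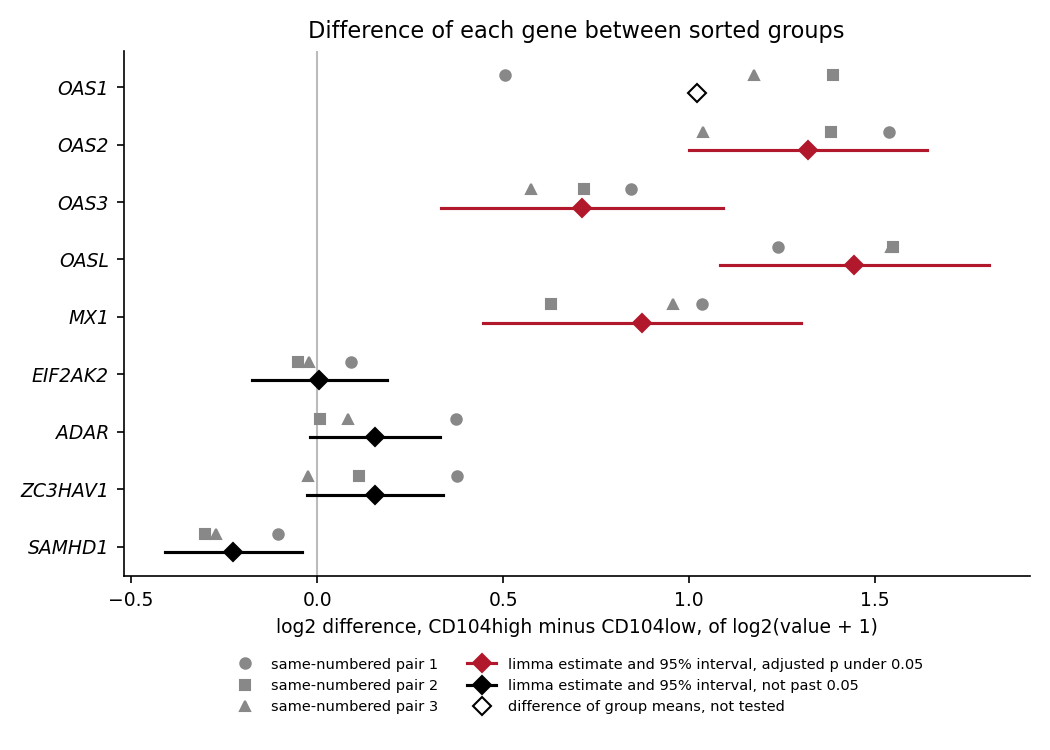
Log2 difference of each of the 9 genes, CD104high minus CD104low (horizontal axis), with the limma estimate and its 95% interval (diamonds and lines, red where the adjusted p is under 0.05) and the 3 same-numbered pairs (grey). The intervals of OAS2, OAS3, OASL and MX1 lie above 0, those of EIF2AK2, ADAR and ZC3HAV1 include 0, and the open diamond of OAS1 was not tested.

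Set per length, the genes that rose were the less abundant ones. With values divided by the length of all annotated exons of the gene (GENCODE release 29), ADAR was the most abundant, at 1564 ± 65.2 in CD104high and 1408 ± 128 normalised reads per kb in CD104low (SD, n = 3 each). ZC3HAV1 (490 ± 25.8 and 441 ± 38.4), EIF2AK2 (359 ± 15.4 and 359 ± 31.9) and SAMHD1 (251 ± 14.1 and 293 ± 24.4) followed in both groups, with no overlap between neighbours within a group.

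OAS3 came next, at 201 ± 35.3 per kb in CD104high and 123 ± 27.1 in CD104low. Below it OASL (142 ± 9.81 and 52.4 ± 10.5), OAS2 (106 ± 9.83 and 42.5 ± 6.62) and MX1 (93.8 ± 23.9 and 50.7 ± 9.94) stood close together. OAS2 and MX1 overlapped in CD104high, and OASL, MX1 and OAS2 overlapped in CD104low. OAS1 was last, at 1.76 ± 0.61 in CD104high and 0.735 ± 0.0959 in CD104low, the lowest of the 9. Transcript forms differ in length, so these per-length levels order the genes only roughly.

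**Figure D3:**
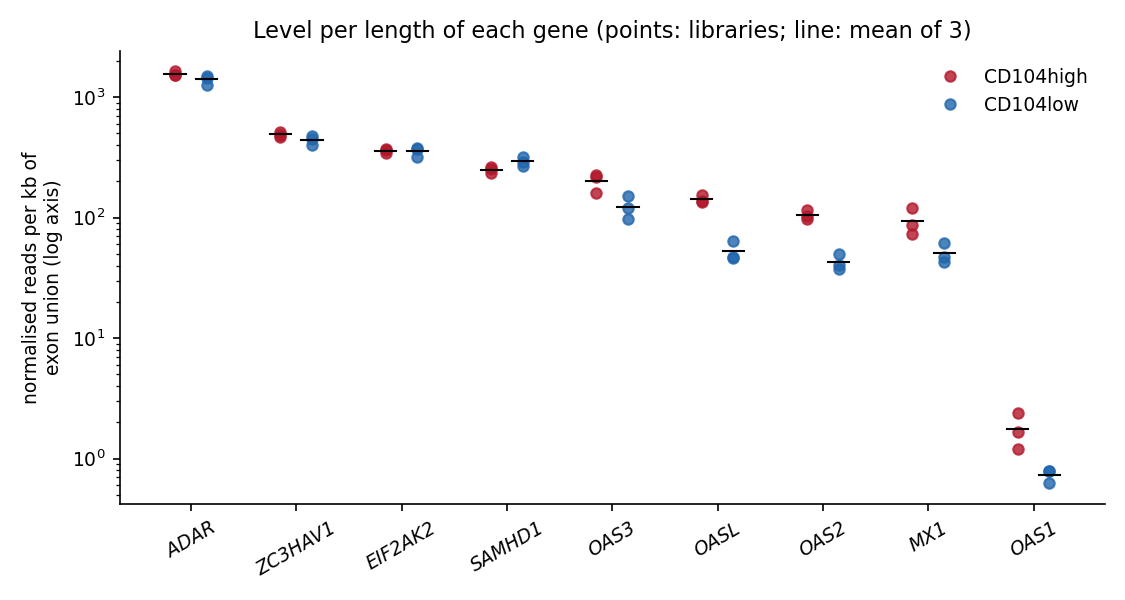
Normalised reads per kb of annotated exon (vertical log axis) for the 9 genes, ordered by their mean in CD104high, with 3 CD104high libraries (red, left) and 3 CD104low libraries (blue, right) and a line for each mean. ADAR, ZC3HAV1, EIF2AK2 and SAMHD1 stand highest with the groups close together, and OAS1 stands last near 1.

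Promoter sequence was read from RefSeq (GRCh38.p14), 250 bases before to 50 after each annotated start, for the 7 members that matched by symbol, with 11 starts in all. OAS2 and OASL did not match, so their promoters were not searched. These stretches are shown because the response element bound by the STAT2 and IRF9 complex repeats GAAA. Capitals mark GAAANNGAAA or the closer-spaced GAAANGAAA, on either strand, and overlapping matches run together. Each is written along the gene's own strand. OAS1, OAS3 and the second MX1 stretch end at or before the annotated start, EIF2AK2 runs 10 bases past it, and the first MX1 stretch lies mostly past an upstream start.
OAS1, chr12:112906902-112906961, plus strand: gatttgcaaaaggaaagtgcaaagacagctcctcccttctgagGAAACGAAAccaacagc
OAS3, chr12:112938324-112938473, plus strand: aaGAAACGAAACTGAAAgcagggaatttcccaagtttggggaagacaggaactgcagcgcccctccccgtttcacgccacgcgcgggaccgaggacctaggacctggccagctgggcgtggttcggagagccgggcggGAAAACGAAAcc
EIF2AK2, chr2:37156971-37157040, minus strand: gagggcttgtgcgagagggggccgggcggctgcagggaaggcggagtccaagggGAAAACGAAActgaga
MX1, chr21:41420553-41420582, plus strand: accagcgagcaGAAATGAAACCGAAActga
MX1, chr21:41426119-41426188, plus strand: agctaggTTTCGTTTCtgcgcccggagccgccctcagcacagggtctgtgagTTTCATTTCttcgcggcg

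GAAANNGAAA was found in OAS3, MX1 and EIF2AK2, at 4 of the 11 starts, against 3.57% of 35116 promoters. OAS3 holds it at 2 places and EIF2AK2 at 1, across its start, with the same 10 letters in EIF2AK2 as in the OAS3 copy nearest the start. GAAANGAAA was found in OAS1, OAS3 and MX1, against 3.12% of promoters. The windows of ADAR, ZC3HAV1 and SAMHD1 held neither. TTCNNNGAA, the palindrome known as the gamma-activated sequence, was found in OAS1, MX1 and ZC3HAV1, against 7.66% of promoters. A match describes letters in this window and no more. Genes with a match thus included EIF2AK2, whose level overlapped between the groups, as well as OAS3 and MX1.

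The genes around these enzymes were counted in lists chosen for the pathway with earlier results of these data known. Of 96 tested genes in 8 lists, 25 were higher and 17 lower in CD104high (limma), beside the 12.1% and 11.3% given above for all genes. The higher ones were mainly restriction factors and genes of the list of sensors and adaptors, and the lower ones mainly genes around PKR and translation initiation. The median log2 fold change of the 96 was 0.10.

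Of the restriction factors other than the 9 genes, 13 of 28 tested were higher and 0 lower, beside 12.1% and 11.3% of all genes. Their median log2 fold change was 0.46. BST2 (tetherin, which holds budding virions at the cell surface) had 3507, 2933 and 3970 in CD104high, against 1136, 1113 and 1915 in CD104low, a 2.56-fold rise (limma adjusted p = 0.00138). SLFN5, of the Schlafen family, rose 1.99-fold (adjusted p = 0.000326) and the guanylate-binding protein gene GBP3 1.58-fold (0.000424). RSAD2 and CMPK2, neighbouring interferon-induced genes, had means of 8.79 and 5.39 in CD104high and 3.29 and 1.99 in CD104low and were, like OAS1, too low to be tested. Unlike for OAS1, the groups overlapped for both. CD104high libraries had 1.98, 7.94 and 16.5 for RSAD2 and 1.98, 5.96 and 8.23 for CMPK2.

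Of the oligoadenylate branch 3 tested genes are given here, and the list is incomplete, so it gets no count of its own, though the 3 are among the 96. ABCE1, which recycles ribosomes, fell by 0.54 (SE 0.08, limma adjusted p = 0.00206). PDE12, which degrades oligoadenylates, fell by 0.28 (adjusted p = 0.0188). The remaining gene, ELAC1, which acts in tRNA processing, had a log2 fold change of 0.092 (adjusted p = 0.793). The call for PDE12 ended without CD104high replicate 1 or 2 or CD104low replicate 2 (adjusted p = 0.0571 to 0.0797) and in limma without the trend (0.0532).

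Around PKR, 9 of 17 tested genes were lower and 0 higher, beside 11.3% and 12.1% of all genes. Their median log2 fold change was −0.24. EIF2S1, which encodes the eIF2 alpha subunit that PKR phosphorylates, had 7029, 7902 and 7680 in CD104high, against 10154, 9907 and 9355 in CD104low, and fell by 0.38 (SE 0.07, limma adjusted p = 0.00438). PPP1R15A (GADD34), which directs the phosphatase for the same site, fell by 0.48 (adjusted p = 0.00343). EIF2B5, a subunit of the exchange factor for eIF2, fell by 0.32 (adjusted p = 0.0127). PPP1R15B, the constitutive counterpart of PPP1R15A, fell by 0.28 (adjusted p = 0.0184), a call that ended without CD104high replicate 3 or CD104low replicate 2 (0.073 and 0.0688), without both libraries numbered 3 (0.0828) and in limma without the trend (0.0536). The call for EIF2B5 ended without CD104high replicate 2 (adjusted p = 0.0587) and in limma without the trend (0.0517). The stress transcription factor genes ATF4 and DDIT3 had −0.10 (adjusted p = 0.6) and −0.40 (0.241), and the PKR inhibitor gene DNAJC3 had 0.055 (0.606). Without CD104low replicate 1 DDIT3 had −0.12 and ATF4 0.066, and without CD104low replicate 3 they had −0.60 and −0.23.

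Among 11 tested sensors and adaptors 6 were higher and 1 lower, beside 12.1% and 11.3% of all genes, with a median of 0.59. IFIH1 (MDA5), which binds long double-stranded RNA, had 471, 504 and 475 in CD104high, against 218, 198 and 174 in CD104low, a 2.46-fold rise (limma adjusted p = 0.00037). DHX58 (LGP2), its cofactor, rose 2.67-fold (adjusted p = 0.000284) and DDX58 (RIG-I) 1.59-fold (0.000687). The kinase gene IKBKE, the DNA-sensing adaptor gene STING1 and the factor gene IRF3 rose 1.58-fold, 1.51-fold and 1.26-fold (adjusted p = 0.00205, 0.00691 and 0.00859), and MAVS, the adaptor of the RNA sensors, had a log2 fold change of 0.041 (0.718). The sensor of cytosolic DNA, CGAS, was the member called lower (−0.28, adjusted p = 0.0269). It was outside the rule for named genes and was chosen after its values were seen, and its call ended without CD104high replicate 1 or 2 or CD104low replicate 1 or 3 (0.0557 to 0.102), without both libraries numbered 3 (0.0769) and in limma without the trend (0.0725). Without both libraries numbered 3 the adjusted p of IRF3 was 0.0518.

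Of 11 tested genes of the receptor and its signalling, 3 were higher and 0 lower (median 0.30), beside 12.1% and 11.3% of all genes. STAT2 had 5167, 4873 and 4498 in CD104high, against 2153, 2465 and 2704 in CD104low, a 1.99-fold rise (limma adjusted p = 0.000238). IRF9 and 11 interferon ligand genes were not analysed here. IRF1, a transcription factor of the interferon response, rose 1.6-fold (adjusted p = 0.00442), and IRF7, TYK2 and JAK1 had 0.30, 0.16 and −0.0089 (0.101, 0.156 and 0.946), IRF7 passing with the replicate block (adjusted p = 0.0342) and without CD104low replicate 1 (0.0353). IFNAR1 rose by 0.35 (adjusted p = 0.0369) and IFNAR2 had 0.90 (0.0551). The call for IFNAR1 ended without any 1 of 5 libraries, the exception being CD104low replicate 3 (adjusted p = 0.0517 to 0.114), and in limma without the trend (0.109), and IFNAR2 passed with the replicate block (adjusted p = 0.0392), without the trend (0.0384) and with a pseudocount of 5 (0.0497).

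**Figure D4:**
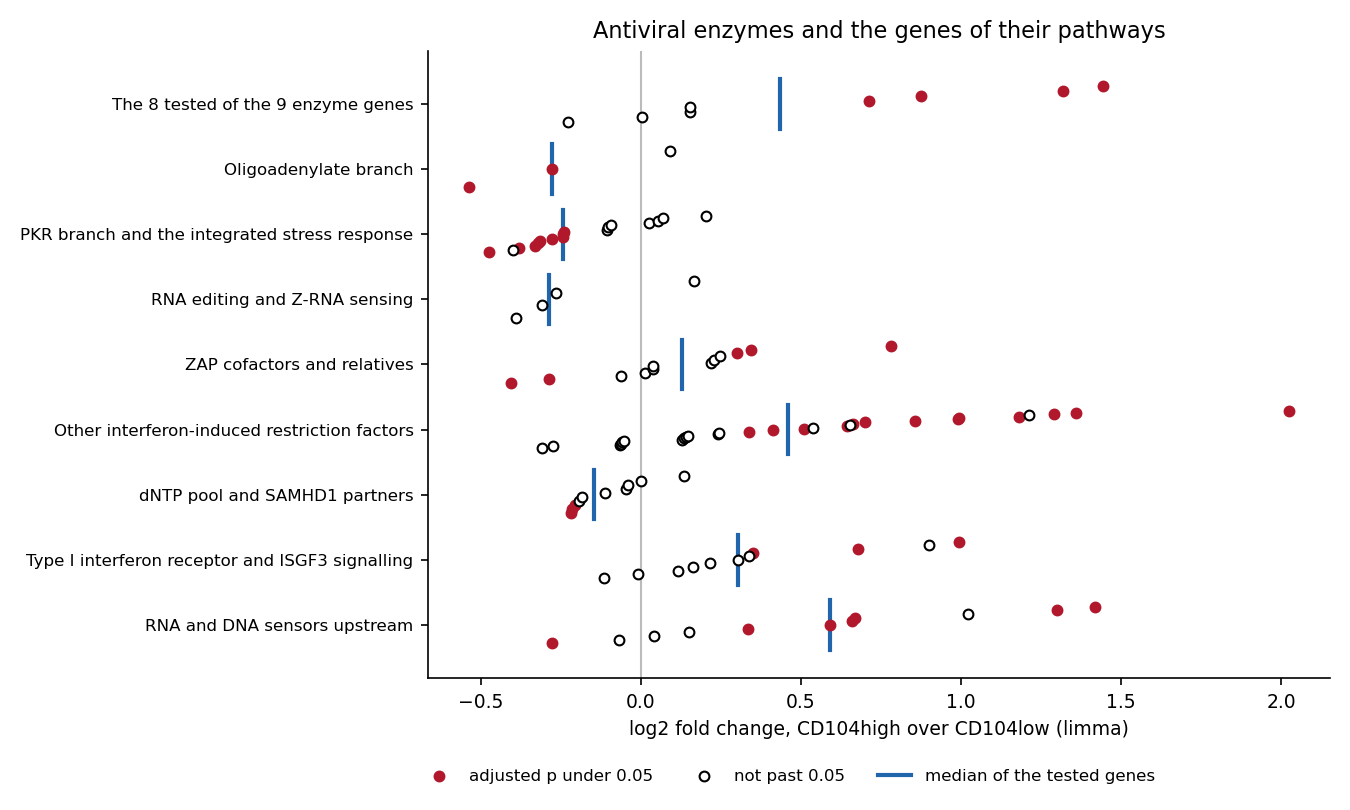
Log2 fold change (horizontal axis, CD104high over CD104low, limma) of the 8 tested enzyme genes in the top row and of the tested genes of 8 pathway lists below, red where the adjusted p is under 0.05, with blue lines for medians. Restriction factors and sensors lie mostly above 0 (medians 0.46 and 0.59), and genes around PKR mostly below it (median −0.24).

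Of 12 tested partners of ZC3HAV1, 7 did not pass, 3 were higher and 2 lower, beside 12.1% and 11.3% of all genes (median 0.13). SHFL (shiftless), which acts with ZAP against viral RNA, rose 1.72-fold (limma adjusted p = 0.00189) and PARP12, a relative of ZAP, 1.27-fold (0.019), while the exosome subunit gene EXOSC5 and the helicase gene DHX30 fell by 0.41 (0.00526) and 0.29 (0.0193). TRIM25 and KHNYN, its cofactors for RNA decay, had 0.013 (0.91) and 0.22 (0.167), KHNYN passing with the replicate block (adjusted p = 0.0356) and without CD104high replicate 2 (0.0485). PARP12 lost its call without CD104high replicate 1 or CD104low replicate 2 (0.0799 and 0.07), and DHX30 without CD104high replicate 2 or 3 or CD104low replicate 2 (0.0642 to 0.074). Without the trend PARP12 and DHX30 had adjusted p of 0.0524 and 0.0675. In the editing and Z-RNA list 0 of 4 tested genes were called by limma, and at an unadjusted p under 0.05 ADAT3 (−0.39) and MLKL (−0.31) would pass. Both passed with the replicate block (adjusted p = 0.0191 and 0.0274), and ADAT3 with DESeq2 (0.0395) and without CD104low replicate 3 (0.0308), while ADAT2 had −0.27 (0.326).

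SAMHD1 works against deoxynucleotide synthesis and is phosphorylated by cyclin A with its kinases. Of 10 tested genes of that kind 3 were lower and 0 higher (median −0.15), beside 11.3% and 12.1% of all genes. CCNA2, CDK2 and RRM1, a subunit of ribonucleotide reductase, fell by 0.21, 0.22 and 0.21 (limma adjusted p = 0.0353, 0.0372 and 0.0396), and the partner subunit gene RRM2 had −0.19 (0.085, against 0.0334 with the replicate block and 0.0423 without CD104high replicate 3). CDK2 lost its call without any 1 library, CCNA2 without any but CD104low replicate 3 and RRM1 without any but CD104low replicate 1 (limma adjusted p = 0.0507 to 0.131). All 3 calls ended in limma without the trend (0.0703 to 0.0915), and those of CDK2 and RRM1 with total-read scaling (0.0513 and 0.0565). Of 7 proliferation markers 4 were called lower (CCNB1, CDC20, MCM2 and PLK1) and 0 higher, beside 11.3% and 12.1% of all genes. TOP2A had 0.23 (limma adjusted p = 0.0551). Summed levels of the 7 were 133700 to 140215 in CD104high, against 150415 to 160039 in CD104low. In bulk RNA, fewer cells of a kind and less RNA per cell cannot be told apart, and the part of proliferation in these values was not tested.

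Markers of other cells were also counted. Of 8 leukocyte markers 2 were in the table, with summed levels of 608 to 653 in CD104high, against 299 to 328 in CD104low. CD14 was called higher by limma, at 548 in CD104high and 248 in CD104low on average, while PTPRC, CD3D, CD3E, MS4A1, LYZ and TYROBP were not analysed here. All 6 fibroblast markers were in the table, with sums of 5067 to 7483 in CD104high, against 3125 to 5156 in CD104low, and 1 of 4 tested (COL1A2) was called higher. LUM and PDGFRB were highest in replicate 3 of both groups, as OAS3 and MX1 were, and DCN and PDGFRA were near 0, with means of 3.68 and 4.96 in CD104high and 2.64 and 4.25 in CD104low. Of 4 endothelial markers 2 were in the table, with sums of 60.7 to 130 in CD104high, against 88.6 to 114 in CD104low. The 1 of them tested, KDR, had a log2 fold change of −0.055 (limma adjusted p = 0.919). A list of 4 plasmacytoid dendritic cell markers was not analysed here. The samples are of 1 established cell line, so these levels do not show that such cells were present. Any part of other cells in the rise of the antiviral genes was not tested.

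Over the 6 libraries the 8 tested genes did not share 1 pattern. OAS2 and OASL had the most alike log2 values of the 4 that rose (Pearson r = 0.95 over 6 libraries), which the difference between groups dominates. Within groups, deviations from the group mean followed each other for OAS2 and OAS3 (r = 0.84) and for OAS3 and MX1 (r = 0.76), whose replicate 3 was high in both groups. They did not for OAS2 and OASL (r = −0.017) or for OASL and MX1 (r = −0.41). These are descriptions over 6 libraries of 1 line. Among all other tested genes, CYP4V2, LAMA3, LTC4S, B3GNT8 and GSTO2 had log2 values most like the mean standardised profile of the 8 genes, with r between 0.990 and 0.993 over the same 6 libraries.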

How the data were processed

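RNA-seq of 6 sorted MDA-MB-231 samples was used, 3 CD104high and 3 CD104low. The submitters' processing notes name STAR 2.4.0, featureCounts 1.5.0, DESeq2 1.30.1, FastQC and the build GRCh38.p13 (hg38), but no roles. The sources used here give neither a strand setting nor a filter. The deposited values have the unit signal: gene read counts that the authors divided by a size factor per library. The authors also deposited log2 fold changes, with standard errors and a test statistic (used as scores), and p-values with adjusted p-values. Dividing by the smallest value of a library gave whole reads (to within 0.1) for 99.96% of values or more. In CD104high replicate 2 the size of 1 read is 0.993, too close to 1 to be sure, so tests on counts stand as alternatives. EdgeR on these reads called 3349 genes.

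The main test fitted log2(value + 1) with limma 3.58.1 in R 4.3.3, using its mean-variance trend and Benjamini-Hochberg adjustment over 14343 genes. These had values of 10 or more in 3 or more of the 6 libraries. Simulated data took the mean levels of this comparison, with 200 of 14343 genes changed. There the test recovered 93% of changes of 1 and 31% of changes of 0.5 on the log2 scale, with 10 false calls. Every simulated gene had the same spread setting, not taken from these data. Far fewer genes were changed than the 3355 called here, so these rates do not state what this comparison could detect. Members and lists were chosen with earlier results of these data known, and a few listed genes are not reported here or counted in the lists. The text names the 9 genes, a set of pathway genes chosen by name with up to 3 further genes of smallest p per list, and the 5 genes most like the mean profile. Same-numbered samples deviated together (r = 0.17, 0.32 and 0.48 for numbers 1 to 3, across genes). Between numbers 1 and 2, r was 0.13 (CD104high 2 with CD104low 1) and 0.093 (CD104high 1 with CD104low 2). Between number 3 and the other numbers it was −0.37 to −0.22. The data thus set number 3 apart from the others and point only weakly to pairing of number 1, and the labels name no pairing. The unpaired fit stayed the main one. The labels name no separate cultures, so the p-values rest on the spread among these samples, which may be technical. Alternatives were edgeR 4.0.16 and DESeq2 1.42.0 on recovered reads, total-read scaling, no filter, other pseudocounts, no trend, the replicate block, a threshold of 0.01 and each library left out. Chosen after seeing the data were leaving out both libraries numbered 3, edgeR without the filter (for the 9 genes), and all alternatives for single pathway genes.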

Additional observations from a re-analysis of the deposited data

How the results depend on the processing

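OAS2 and OASL kept their rise and their call under every alternative run. For the 9 genes as a set, 4 calls became 2 at a threshold of 0.01 and 2 in limma without the trend, where OAS3 had 0.71 (adjusted p = 0.0687) and MX1 0.87 (0.0511). Leaving out 1 library gave 3 to 5 calls, with OAS3 at 0.56 to 0.87, EIF2AK2 at −0.0705 to 0.0485 and SAMHD1 at −0.28 to −0.16. The replicate block gave SAMHD1 its call at −0.23, and it also gave calls to KHNYN, RRM2, IFNAR2, ADAT3, MLKL and IRF7 and changed no other call among the 9 genes, ITGB4 and the named pathway genes. The marker genes and the 5 profile-like genes were not refitted under the alternatives. EIF2AK2 turned sign with edgeR and TMM, with the filter (−0.0011) and without it (−0.0027). It also turned without CD104high replicate 3 (−0.0234) and without CD104low replicate 1 (−0.0705). Without both libraries numbered 3 the set still had 4 calls.

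Over all genes, 3355 calls became 1436 at 0.01, 2173 without the trend, and 1816 to 3313 without 1 library, the lowest without CD104high replicate 1. For the pathway genes, 42 became 22, 25 and 25 to 37. With the block these counts were 4706 and 55, and without both libraries numbered 3 they were 3229 and 33. JAK1 and TRIM25, near 0, turned sign without both libraries numbered 3 (0.0144 and −0.0261), and JAK1 with total-read scaling (0.0104). Leaving out 1 library also turned 6 uncalled pathway genes: ADARB1 (−0.0367 to 0.29), ATF4 (−0.23 to 0.0662), ELAC1 (−0.0973 to 0.236), JAK1 (−0.0678 to 0.039), MAVS (−0.00859 to 0.0826) and TRIM25 (−0.0244 to 0.0646). Why these counts and signs moved was not tested. OAS1, RSAD2 and CMPK2 were too low for the filter on low values, and the part of depth in this was not tested.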
